A study of Homo sapiens with 18 samples.

Results

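MDFIC and PTGFRN are 2 of the 55765 genes in the deposited table of normalized counts. They were chosen because their change with tazemetostat was higher in both RB1-null clones than in the RB1 wild-type line, so every value of these 2 genes that sets a line against another is a description and carries no test. Both genes were close to undetectable in the clones without drug and detectable in the wild-type line, and with drug both were 1.67 to 2.42 times as high in the clones as in the wild-type line.

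The cells were G401, a malignant rhabdoid tumour cell line. The study compared 3 lines of it: a wild-type control (WT) edited with CRISPR/Cas9 at the AAVS1 safe harbour site, and E1 and F2, each a single clone with both RB1 alleles disrupted. RB1 encodes the retinoblastoma protein, which restrains E2F transcription factors, and the series' design text states that the clones lacked the protein by immunoblot. Whether the control line was also grown from a single cell is not given in the sources used here. Each line was given 10 µM tazemetostat, which blocks the enzyme EZH2, or an equal volume of its solvent DMSO for 11 days, with 3 biological replicates in each of the 6 groups. Poly(A) RNA was sequenced from stranded libraries with paired-end reads.

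MDFIC is a cysteine-rich protein of the MyoD family inhibitor group. It is known to bind the mechanosensitive channels PIEZO1 and PIEZO2, the cyclin T1 subunit of the elongation factor P-TEFb, and the Wnt pathway proteins axin and LEF1. PTGFRN, also called EWI-F or CD9P-1, is a membrane protein of the immunoglobulin superfamily that associates with the tetraspanins CD9 and CD81. EZH2 is the catalytic subunit of Polycomb repressive complex 2, which methylates histone H3 at silenced genes, many of them rich in CpG dinucleotides near their start.

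The sequences just before the start of each gene are shown because the members changed together and CpG content is a feature the choice of genes did not use. They are the 250 bases upstream of the first annotated start, from RefSeq (GRCh38.p14), on the plus strand, 5′ to 3′, with each CpG in capitals. MDFIC lies on chromosome 7 (chr7:114921844-114922093) and PTGFRN on chromosome 1 (chr1:116909666-116909915).
MDFIC: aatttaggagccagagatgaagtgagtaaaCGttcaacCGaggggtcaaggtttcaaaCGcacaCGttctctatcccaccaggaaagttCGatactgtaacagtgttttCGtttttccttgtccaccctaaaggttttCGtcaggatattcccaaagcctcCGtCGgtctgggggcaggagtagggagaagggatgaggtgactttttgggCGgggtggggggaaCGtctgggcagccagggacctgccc
PTGFRN: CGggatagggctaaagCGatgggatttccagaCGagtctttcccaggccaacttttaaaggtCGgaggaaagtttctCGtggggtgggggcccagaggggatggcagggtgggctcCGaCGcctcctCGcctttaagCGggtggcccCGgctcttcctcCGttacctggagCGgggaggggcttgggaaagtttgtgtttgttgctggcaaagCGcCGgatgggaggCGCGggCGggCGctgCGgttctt
The MDFIC stretch held 11 CpG and 52.8% G or C, and the PTGFRN stretch held 19 CpG and 62.8% G or C. The medians over 35114 RefSeq promoters of that length were 11 CpG and 58% G or C, so the MDFIC sequence was at the median for CpG and PTGFRN above it. Both strands were searched for 4 motifs. An E2F motif (TTTCCCGC, TTTGGCGC, TTTCGCGC or TTTGCCGC) was matched in neither stretch and in 2.79% of all promoters. The cell cycle homology element TTTGAA was matched in the MDFIC stretch, in none of the PTGFRN stretch, and in 13.3% of all promoters. Neither stretch held an AP-1 motif (TGAGTCA or TGACTCA, found in 4.2% of promoters) or a TATAAA box (found in 10.7%).

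Depth was 25709489 to 39314860 reads per library, recovered from the deposited values. A level of 3 reads or fewer in a library was treated as the floor of detection, and floors and counting intervals cover counting error only. SMARCB1, the gene whose loss defines rhabdoid tumours, had 0 reads in all 18 libraries. RB1 transcript was lower in the clones, with group means of 648 to 977 normalized counts against 2474 and 2694 in WT. The line's markers VIM, KRT8 and KRT18 were high, with group means between 9035 and 160825 normalized counts. The blood marker PTPRC, the liver marker ALB and the muscle factor MYOG had group means between 0 and 6.76 in all groups, and the embryonic myosin gene MYH3 between 39.3 and 88.4.

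MDFIC was present at a low level in untreated WT cells. Its normalized counts in the WT DMSO libraries were 78.6, 85.8 and 89.0, a mean of 84.4 ± 5.3 (SD, n = 3). In E1 with DMSO they were 0, 0 and 0.974, which is 1 read in all. In F2 with DMSO they were 1.02, 1.04 and 0, which is 2 reads in all. The 6 clone libraries lay far below the 3 WT libraries and at the floor.

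With tazemetostat MDFIC was present in every line. The WT libraries read 239, 250 and 225 normalized counts (238 ± 12.2). The E1 libraries read 345, 399 and 447 (397 ± 50.9), and the F2 libraries 501, 477 and 487 (488 ± 11.9). With drug both clones thus lay above WT, the opposite of DMSO, and none of the 3 groups overlapped. The mean in E1 was 1.67 times and the mean in F2 2.05 times that in WT.

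PTGFRN showed the same arrangement of groups with a wider spread in untreated WT cells. Its normalized counts in WT with DMSO were 28.8, 82.9 and 48.3 (53.3 ± 27.4, from 33 to 88 reads). E1 with DMSO gave 1.79, 0 and 0.974, which is 3 reads in all, and F2 with DMSO gave 0 in each of its 3 libraries. Replicate 1 of WT was lowest and replicate 2 highest, and even the lowest of them was above all 6 clone libraries.

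Under tazemetostat the PTGFRN libraries of WT read 915, 965 and 802 normalized counts (894 ± 83.8). Those of E1 read 2048, 2268 and 2186 (2167 ± 111), and those of F2 2127, 2091 and 2196 (2138 ± 53.2). The clones overlapped each other and both lay above WT, at 2.42 times its mean in E1 and 2.39 times in F2. Of all 16154 genes tested, 20.6% were above WT in both clones with tazemetostat without overlap, and 4.48% were below WT in both clones with DMSO without overlap. These shares are the background to the arrangement on which the choice of MDFIC and PTGFRN rests, and nothing is read from them.

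**Figure D1:**
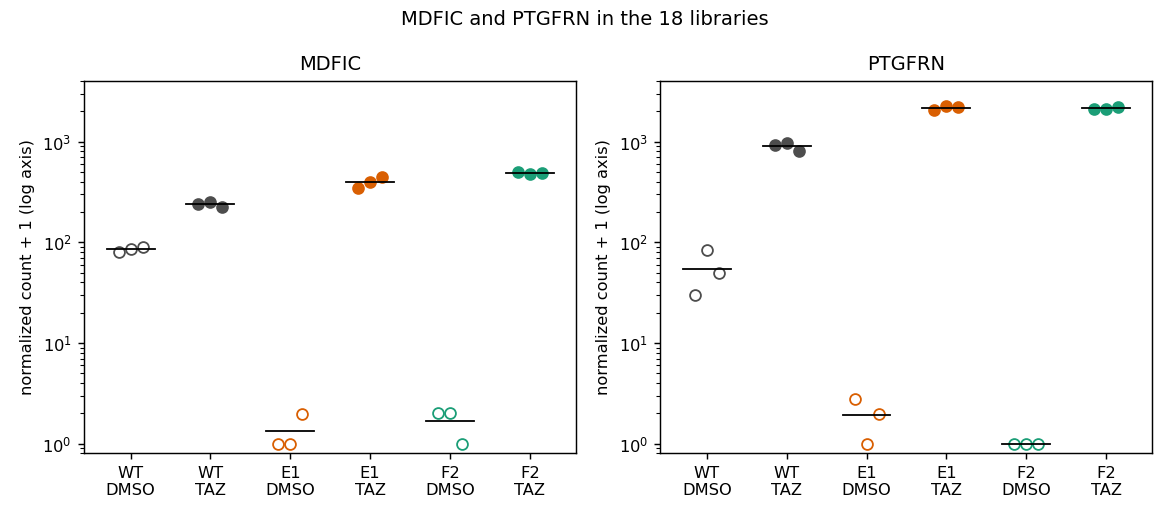
Normalized counts plus 1 of MDFIC (left) and PTGFRN (right) on a log axis, for the 6 groups of line and treatment (TAZ, tazemetostat). Each circle is 1 library, open for DMSO and filled for tazemetostat, and each line marks the mean of 3 libraries; the clone DMSO libraries sit at 0 to 1.79 normalized counts.

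From the lowest to the highest, the levels of MDFIC ran from DMSO-treated E1 and F2, both at the floor, through WT with DMSO and WT with tazemetostat to E1 and then F2 with tazemetostat. For PTGFRN the order was the same except that the treated clones could not be ordered. With library totals in place of size factors as the scale, the treated clones were 1.74 (E1) and 2.27 (F2) times WT for MDFIC and 2.54 and 2.65 times WT for PTGFRN. The direction was thus the same on both scales.

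The change with drug differed greatly between the lines when given as a ratio. In WT the mean of MDFIC with tazemetostat was 2.82 times that with DMSO, and the mean of PTGFRN 16.8 times. In E1 the ratio for MDFIC was 1270, with a 95% exact counting interval of 227 to 50200 because it rests on 1 read with DMSO. In F2 it was 675 (187 to 5579), resting on 2 reads.
For PTGFRN the ratio in E1 was 2303 (788 to 11171), resting on 3 reads. In F2, with 0 reads in DMSO, PTGFRN was at least 653-fold higher with tazemetostat, computed against 3 reads per library. These intervals are wide, and for PTGFRN in F2 only a lower bound is known.

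The DMSO comparison is limited in the same way. MDFIC was 268 times as high in WT as in E1 (47.7 to 10632) and 116 times as high as in F2 (31.9 to 967). PTGFRN was 55.9 times as high in WT as in E1 (18.8 to 274) and at least 16.3-fold higher than in F2. Seen from the treated level, untreated WT cells held 35.5% of their treated MDFIC and 5.97% of their treated PTGFRN. Untreated E1 held 0.0818% and 0.0424%, and untreated F2 0.141% of MDFIC and no PTGFRN read.

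On the log2(value + 1) scale the change with tazemetostat in WT was 1.49 ± 0.26 (SE) for MDFIC and 4.16 ± 0.31 for PTGFRN. It was 8.30 and 10.26 in E1, and 8.25 and 11.06 in F2, with the same SE for each gene. That SE rests on a spread that each gene shares over all 6 groups, including the clone libraries at the floor. A response difference is the change in a clone minus the change in WT. For MDFIC it was 6.82 ± 0.37 in E1 and 6.77 ± 0.37 in F2, and for PTGFRN 6.10 ± 0.44 and 6.90 ± 0.44. Both genes were chosen on this quantity, and among all tested genes 4.79% were called higher in it for E1 and 4.82% for F2 by limma (a size of at least 1 on the log2 scale with an adjusted p under 0.05).

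Each response difference is the sum of a DMSO part, the shortfall of the clone below WT without drug, and a tazemetostat part, its excess over WT with drug. With a pseudocount of 1 the tazemetostat part for MDFIC was 0.73 in E1 and 1.03 in F2, and the DMSO part 6.09 and 5.73. For PTGFRN the tazemetostat parts were 1.28 and 1.26, and the DMSO parts 4.82 and 5.64. The DMSO part thus made up 79.0% to 89.3% of the response difference.

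The size of the DMSO part is not a measured fold, because the clones were at the floor and the pseudocount stands in for their level. With a pseudocount of 0.5 the response difference of MDFIC was 7.62 in E1 and 7.37 in F2, and with a pseudocount of 10, chosen after seeing the data, it was 3.90 and 4.15. For PTGFRN the same pseudocounts gave 6.65 and 7.88, then 3.72 and 3.82. The tazemetostat part moved little, from 0.71 to 0.73 for MDFIC in E1 and from 1.25 to 1.26 for PTGFRN in F2. At all 4 pseudocounts tried, the share of the DMSO part stayed between 65.8% and 90.4%.

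**Figure D2:**
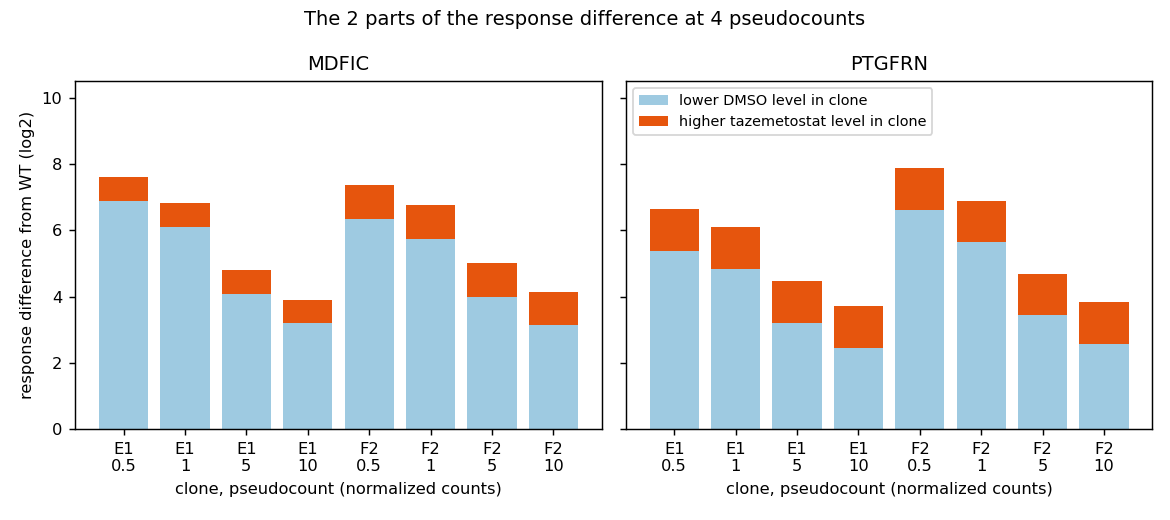
Response difference of each clone from WT on the log2 scale, for MDFIC (left) and PTGFRN (right), at pseudocounts of 0.5, 1, 5 and 10 normalized counts. The lower part of each bar is the DMSO part and the upper part the tazemetostat part; bars shrink from 7.62 to 3.90 for MDFIC in E1 while the upper part stays near 0.7.

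The comparison of E1 with F2 asks how far apart the clones, each with both RB1 alleles disrupted, lay for these genes. Both members were chosen for a higher response in E1 and in F2, so the values of both clones entered the choice. That choice favours likeness between them, and the differences are therefore given as a description with no test.

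With tazemetostat, MDFIC was 1.23 times as high in F2 as in E1, and the 3 F2 libraries lay above the 3 E1 libraries without overlap, as 52.6% of all tested genes did in one direction or the other. The log2 difference, E1 minus F2, was -0.31 with a 95% interval of -0.86 to 0.25 by limma. That interval rests on a spread shared by all 6 groups, including the clone DMSO libraries at the floor. It therefore does not describe the treated libraries alone, and nothing is read from its reaching past 0. On the recovered reads edgeR and DESeq2 each gave a difference of -0.30.

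For PTGFRN with tazemetostat the clones overlapped, and the ratio of F2 to E1 was 0.986. The log2 difference was 0.02, with an interval of -0.64 to 0.68. This interval also rests on the spread shared by all 6 groups, among them the WT DMSO libraries at 28.8 to 82.9 normalized counts. It does not measure the spread of the treated libraries alone, which ran from 2048 to 2268 in E1 and from 2091 to 2196 in F2.

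In DMSO both clones were at the floor for both genes, so no fold between them is given. The fitted log2 difference of MDFIC was -0.35 (interval -0.91 to 0.20). That of PTGFRN was 0.82 (0.16 to 1.48), which rests on 3 reads in E1 against 0 in F2. The response of E1 minus that of F2 was 0.05 for MDFIC (-0.74 to 0.84) and -0.80 for PTGFRN (-1.73 to 0.13). The latter value again rests on the DMSO reads.

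Over the 18 samples MDFIC and PTGFRN followed each other, with a Pearson r of 0.974 on the log2(value + 1) scale. The deviations of the libraries from their 6 group means had an r of 0.159, so the likeness lay in the group means. These coefficients are descriptions: the samples share groups and the genes were chosen for a like pattern.

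Among 12983 genes with a mean of at least 50, those most like MDFIC by Pearson r were RTKN2 (0.975), PTGFRN (0.974), FABP5 (0.960), MAP1LC3C (0.958) and GLUL (0.956). FABP5 encodes a fatty acid binding protein, MAP1LC3C an autophagy protein of the LC3 family, and GLUL glutamine synthetase. An r of at least 0.9 was found for 53 genes with MDFIC and for 551 with PTGFRN. The genes most like PTGFRN were BMP7 (0.988), a growth factor of the bone morphogenetic protein family, GLUL (0.980), BARHL2 (0.979), SIRPA (0.977) and ACSL4 (0.976). BARHL2 is a homeobox transcription factor, SIRPA the receptor for CD47, and ACSL4 an acyl-CoA synthetase. By Spearman rho 1 of the 5 genes for MDFIC and 0 for PTGFRN came up again, and by the distance between group means 3 and 0, so the identity of these neighbours depends on the measure.

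In the treated cells GLUL and ACSL4 were higher in both clones than in WT by their means, as the members were, and the other genes were not. RTKN2 had group means of 15.6 normalized counts in WT with DMSO, and in the untreated clones 0.322 and 0.341. With tazemetostat it had 103, 86.5 and 135 in WT, E1 and F2, so E1 was not above WT. BMP7 had 69.8 in WT with DMSO against 11.6 in E1 and 4.08 in F2, and with tazemetostat 813 in WT against 793 and 714. GLUL was present in all groups, at 399.6 in WT with DMSO against 109.7 in E1 and 143 in F2. With tazemetostat GLUL reached 1545, 2186 and 2743 in WT, E1 and F2, so that it was below WT in the untreated clones and above WT in the treated ones, without overlap. ACSL4 had 50.2 in WT with DMSO against 6.66 in E1 and 11.2 in F2. With tazemetostat its means were 1164, 1683 and 1322 in WT, E1 and F2, and the F2 libraries overlapped those of WT.

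The DMSO pattern of the members was looked for among all tested genes, with limits chosen after the values were seen and with no test. There were 13 genes with at least 10 reads in every WT DMSO library and at most 3 reads in every DMSO library of both clones, MDFIC and PTGFRN among them. The other 11 were ZNF732, IGFBP3, RSPO3, ANO5, BTNL9, MAP1LC3C, FABP5, ESRRG, NT5E, MARCKS and SPRY2. They include IGFBP3, which binds insulin-like growth factors, RSPO3, a Wnt agonist, and NT5E, the surface enzyme CD73.

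Of these 13 genes, 10 were higher with tazemetostat than with DMSO in all 3 lines without overlap, where 19.6% of all tested genes were. Genes at the floor in 6 libraries had to be high elsewhere to be tested, and the 10 include the members, so nothing is read from this count. In the treated cells 2 of the 13, MDFIC and PTGFRN, were above WT in both clones without overlap, and the whole set of tested genes gave 20.6%. Those 2 genes were chosen for a higher response in both clones, so nothing is read from this count either. Another 8 were below WT in both clones, against 23.5% of tested genes, and 3 (FABP5, ESRRG and MARCKS) were neither. The 13 genes were picked for low levels in both clones with DMSO, so nothing is read from the 8. Among these 8, IGFBP3 had group means of 11450 normalized counts in treated WT, 3183 in E1 and 5019 in F2. ZNF732 stood at 23.4 in treated WT and at 0.314 and 0.66 in the treated clones, so there the low level of the clones was also seen with drug.

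**Figure D3:**
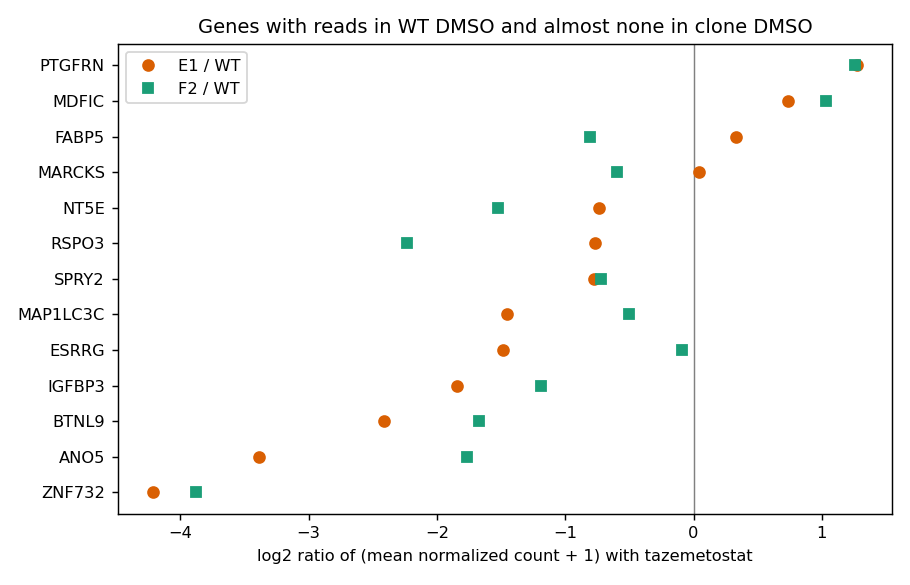
Log2 ratio of the mean normalized count plus 1 with tazemetostat in E1 (circles) and F2 (squares) to that in WT, for the 13 genes with at least 10 reads in each WT DMSO library and at most 3 in each clone DMSO library. PTGFRN and MDFIC lie to the right of 0 for both clones and ZNF732 lies farthest to the left, at -4.21 and -3.88.

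The genes beside each member were examined in the order of the RefSeq annotation, taking the nearest 3 tested genes on each side. Other annotated genes lie between some of them. In order along chromosome 7 these were C7orf60, LINC00998 and FOXP2 before MDFIC, and TFEC, TES and CAV1 after it.

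FOXP2, a forkhead transcription factor gene, had the same DMSO pattern at a lower level. Its group mean was 10.9 normalized counts in untreated WT (7 to 18 reads), and 0 and 0.404 in untreated E1 and F2. With tazemetostat it was 19.5, 13.5 and 66.7 in WT, E1 and F2. FOXP2 reached the filter, a mean of at least 10, only through the treated F2 libraries, so its responses are given as a description. Treated E1 was below treated WT, yet the fitted response was higher in both clones than in WT. The response difference was 3.02 ± 0.46 (SE) in E1 and 4.86 ± 0.46 in F2 on the log2 scale. The size is set by the pseudocount, since untreated E1 had 0 reads. For FOXP2 in E1 it was 1.24 with a pseudocount of 5, 3.94 with 0.5 and 5.97 by edgeR, and in F2 it ran from 3.09 with a pseudocount of 5 to 6.59 by DESeq2.

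On the other side of MDFIC, TFEC, TES and CAV1 had almost no reads with DMSO in any line. TFEC, the nearest of them, had group means of 34.9 in treated WT, 18.2 in E1 and 20.3 in F2, and was tested only through these treated libraries. TES, which encodes the focal adhesion protein testin, had group means of 818 in treated WT, 129 in E1 and 436 in F2. Its fitted response was lower in the clones, by 2.97 ± 0.42 (SE) in E1 and 1.29 ± 0.42 in F2 on the log2 scale. TES passed the filter only through its treated libraries, so these values are a description and nothing is read from its calls. In F2 the limma call was lost with a pseudocount of 0.5, with no filter on low values and without any 1 replicate number. On the recovered reads edgeR and DESeq2 called TES in neither clone. CAV1, the main protein of caveolae, had 0 reads in all 9 DMSO libraries and group means of 1142 in treated WT, 2094 in E1 and 1245 in F2. C7orf60 and LINC00998 were present in all groups, with means between 468 and 1473, and passed the threshold in no treatment contrast.

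Along chromosome 1 the genes were ATP1A1OS, CD58 and IGSF3 before PTGFRN, and TTF2, TRIM45 and MAN1A2 after it. IGSF3 belongs to the same protein family as PTGFRN. It had group means of 3.97, 2.81 and 0.692 normalized counts with DMSO in WT, E1 and F2, and 2188, 2512 and 2689 with tazemetostat. It therefore lacked the WT baseline of PTGFRN, and its fitted change passed the threshold in every line (log2 8.87, 9.39 and 10.85). CD58, the ligand of the T cell receptor CD2, had means of 5.58 to 9.9 with DMSO and 495 to 607 with tazemetostat. Its fitted change was also upward in every line (log2 5.94, 5.80 and 6.61). IGSF3 and CD58 had DMSO means under 10 and reached the filter, a mean of at least 10, only through their treated libraries. Their rises are therefore a description.

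None of the genes after PTGFRN was called higher with drug. TRIM45, a ubiquitin ligase of the tripartite motif family, fell by 1.29 on the log2 scale in WT (limma adjusted p = 6.84e-09) and changed by -0.36 in E1 and -0.35 in F2, short of the fold limit. TTF2, a transcription termination factor, changed by -0.72, 0.10 and -0.01 in WT, E1 and F2. MAN1A2, a mannosidase of the Golgi, had means of 4303 to 5169 in all groups. Before PTGFRN, on the side of IGSF3 and CD58, the antisense gene ATP1A1OS had means of 27.5 to 38.9 and was not called in any line. Whether counting used the strand is not given in the sources used here.

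**Figure D4:**
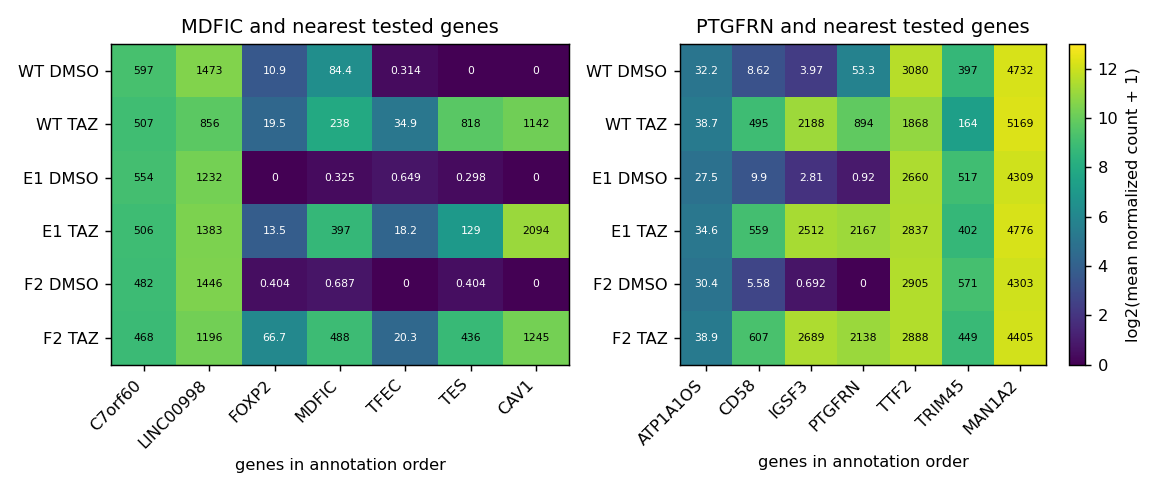
Mean normalized count of MDFIC (left) and PTGFRN (right) and of the nearest 3 tested genes on each side in annotation order, for the 6 groups; the colour gives log2 of the mean plus 1. With DMSO, MDFIC and FOXP2 have reads in WT and almost none in the clones, as PTGFRN has at the right, while IGSF3 is below 4 in all 3 lines.

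The known partners of MDFIC were taken as a list of 21 genes. By role, these were the P-TEFb subunits and their inhibitors, the Wnt pathway proteins, the PIEZO channels, the myogenic factors, the paralogue MDFI, the glucocorticoid receptor NR3C1 and IRF7. Of the 21, 13 had enough reads to be tested and 0 passed the threshold in any of the 5 contrasts that gave the response in each line or its difference from WT. Among all tested genes the share called with tazemetostat was 21.3%, 15.1% and 17.0% in the lines WT, E1 and F2. The same 13 genes had an unadjusted limma p under 0.05 in 10, 4 and 7 cases in those lines, where 67.2%, 52.5% and 57.1% of all tested genes did, and edgeR and DESeq2 also called 0 in each. For the response differences from WT, where 10.0% (E1) and 7.48% (F2) of all tested genes were called, the unadjusted counts were 7 and 4 beside 44.9% and 37.6% of all tested genes, again with 0 calls by edgeR and DESeq2. The median log2 change of the list was 0.28, 0.09 and 0.06 in WT, E1 and F2, beside medians of 0.03, 0.02 and 0.02 over all tested genes.

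PIEZO1, the channel that MDFIC is known to bind, had means of 5199 normalized counts in WT with DMSO and 9008 with tazemetostat. Its log2 change was 0.79 ± 0.15, 0.34 ± 0.15 and 0.74 ± 0.15 in WT, E1 and F2. CCNT1, which encodes cyclin T1, changed by 0.06, 0.07 and 0.03. CDK9, the kinase of P-TEFb, changed by 0.63, 0.12 and 0.38 in WT, E1 and F2, and HEXIM1, an inhibitor of P-TEFb, by 0.48, 0.03 and 0.14. All of these lay under the fold limit of 1.

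The tested Wnt pathway genes of the list were well expressed. CTNNB1, which encodes beta-catenin, had group means between 13370 and 15581 normalized counts and changed by 0.04, 0.09 and -0.04 in WT, E1 and F2. GSK3B, a kinase that marks beta-catenin for degradation, had means between 4056 and 5503. TCF7, a DNA-binding partner of beta-catenin, changed by -0.89, -0.37 and -0.35, and its relative TCF7L1 by 0.68, 0.68 and 0.78. TCF7L2, AXIN1 and the cyclin gene CCNT2 changed by less than TCF7L1 in each line. Outside the Wnt pathway, HEXIM2 had means between 125 and 180. IRF7 was the lowest of the tested partners, with means of 28.4 in WT with DMSO and 55.9 with tazemetostat, and changed by 0.96, 0.09 and 0.88.

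The 8 MDFIC partners that were not tested had few reads. PIEZO2 had 0 to 3 reads per library, the paralogue MDFI 0 to 7, and LEF1 0 in all DMSO libraries and 1 to 11 in the treated ones. NR3C1 had 0 reads in all DMSO libraries and at most 4 in the treated ones. Among the myogenic factors that give the family its name, MYF5 and MYF6 had 0 reads in every library, MYOG at most 3 and MYOD1 at most 14.

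The partners of PTGFRN were a list of 40 genes: the other EWI proteins, the tetraspanins, the ERM proteins that link them to actin, and the prostaglandin F receptor PTGFR. Of these, 28 were tested. With tazemetostat 10 rose and 0 fell in WT, 8 rose and 1 fell in E1, and 8 rose and 0 fell in F2. Among all tested genes 14.5%, 11.3% and 13.3% rose and 6.77%, 3.78% and 3.71% fell. A partner near the floor with DMSO was tested only if it was high with drug, so nothing is read from the counts that rose. With no fold limit 25, 16 and 19 of the 28 had an adjusted p under 0.05, where 64.2%, 46.8% and 52.2% of all tested genes did. The median log2 change of the list was 0.70, 0.26 and 0.37 in WT, E1 and F2.

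Most of the partners that rose were tetraspanins other than CD9 and CD81. Named after their values were seen, CD82, TSPAN1, TSPAN2, TSPAN5, TSPAN7, TSPAN12 and TSPAN13 rose in each of the 3 lines, as did IGSF3. Since IGSF3 passed the filter only through its treated libraries, nothing is read from its rise. The same holds for any tetraspanin near the floor with DMSO, so the rises of the named tetraspanins are a description. In WT their log2 changes ran from 2.10 for CD82 to 7.56 for TSPAN5. The latter is a fitted value that depends on the pseudocount because TSPAN5 had 0 reads in WT with DMSO. The gene that fell in E1 was TSPAN9, by 1.00 on the log2 scale. Of the 3 ERM genes EZR, MSN and RDX, none passed the threshold in any line, and their changes in WT were 0.59, 0.61 and -0.20.

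CD9, a known partner of PTGFRN, had a mean of 1756 normalized counts in WT with DMSO and 4680 with tazemetostat. It rose in WT by 1.41 ± 0.10 (SE) on the log2 scale and changed by 0.72 ± 0.10 in E1 and 0.41 ± 0.10 in F2, under the fold limit. CD81 changed by 0.69 ± 0.12, 0.06 ± 0.12 and 0.42 ± 0.12 in WT, E1 and F2, and CD151 by 0.60, 0.15 and 0.36. IGSF8, another EWI protein that binds CD9 and CD81, rose by 1.07 ± 0.14 in WT and changed by 0.31 in E1 and 0.80 in F2. PTGFR had 0 reads in every library, and CD101, the remaining EWI gene, 0 in all DMSO libraries and at most 13 in the treated ones.

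**Figure D5:**
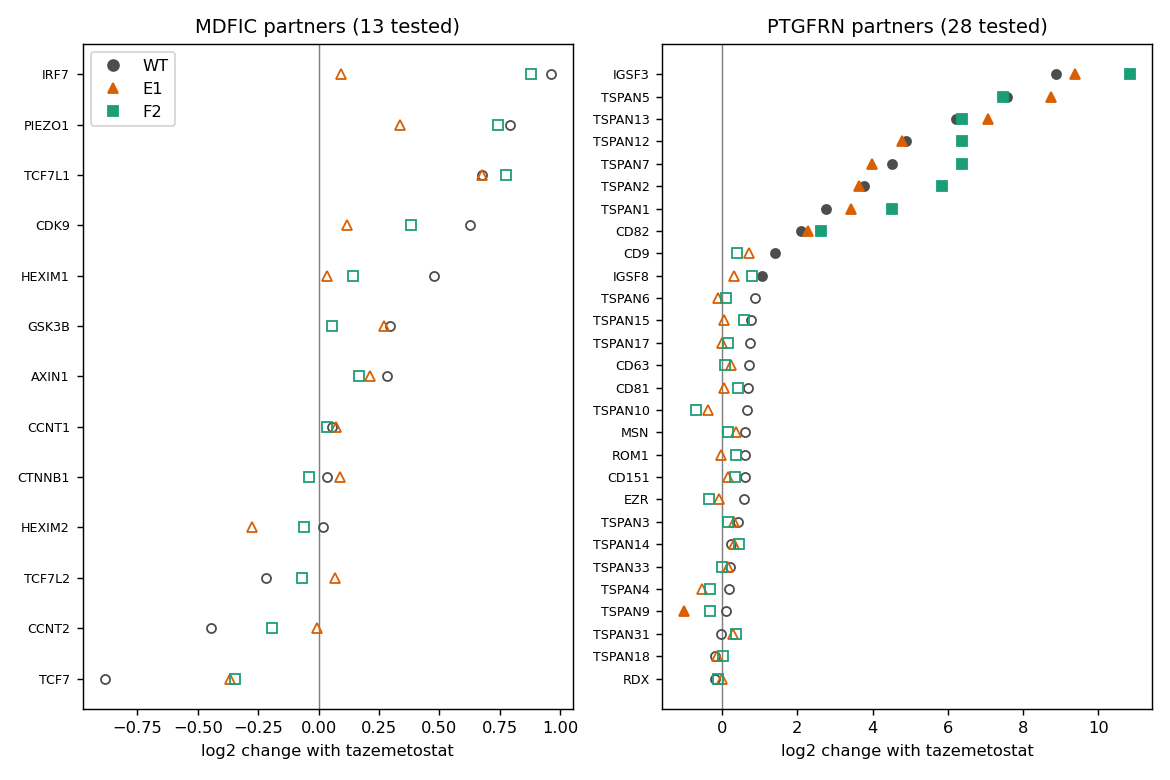
Log2 change with tazemetostat of the tested MDFIC partners (left, 13 genes) and PTGFRN partners (right, 28 genes) in WT (circles), E1 (triangles) and F2 (squares). Filled symbols passed the threshold and open ones did not; IGSF3 and 7 tetraspanins are filled in all 3 lines, and no MDFIC partner is filled.

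The response difference from WT was tested for the partners, which were not used to choose the members. In E1 1 of 28 PTGFRN partners was higher and 2 were lower, where 4.79% and 5.21% of all tested genes were. TSPAN5 was higher (log2 1.19), and TSPAN9 (-1.10) and TSPAN10 (-1.03) were lower. In F2 4 were higher and 2 lower, where 4.82% and 2.66% of all tested genes were: IGSF3 (1.99), TSPAN1 (1.77), TSPAN2 (2.07) and TSPAN12 (1.496) above, CD9 (-1.002) and TSPAN10 (-1.34) below. IGSF3 passed the filter only through its treated libraries, so nothing is read from its call. The same holds for any other partner near the floor with DMSO, and for the counts of higher genes. TSPAN10 was the only one of the 28 past the threshold in both clones, and it was lower in both. The medians of the list were -0.34 in E1 and -0.23 in F2, beside 0.01 and 0.01 over all tested genes. With no fold limit 15 and 14 of the 28 passed in either direction, where 35.4% and 26.9% of all tested genes did. By these medians the higher response of PTGFRN was not accompanied by a higher response of most of its partners. Leaving out replicate 1 of every group reduced the count in E1 from 3 to 1. TSPAN10 in E1 then had a limma adjusted p of 0.0556, and 0.085 without replicate 2, and it fell under the fold limit at the same library total (-0.94). CD9 in F2 fell under the fold limit without replicate 2 (log2 -0.87), at the same total (-0.88) and with TMM scaling (-0.9988).

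Several of the higher calls rest on low DMSO counts. IGSF3 in F2 had a limma adjusted p of 0.143 without replicate 1, and its difference was 0.95 with a pseudocount of 5. TSPAN5 in E1 was not called by DESeq2 (0.53) and turned direction by edgeR (-0.30), and by limma it lost its call with a pseudocount of 0.5 (0.9992) and without replicate 1 (adjusted p = 0.121) or 2 (0.159). TSPAN2 in F2 was not called by edgeR or DESeq2 (adjusted p = 0.9998 and 0.512). TSPAN12 in F2 lost its call with a pseudocount of 5 (0.98), with no filter on low values (adjusted p = 0.0522), and without replicate 2 (0.0962) or 3 (0.231). TSPAN1 in F2 and TSPAN9 in E1 kept their calls under each alternative tried.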

How the data were processed

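The deposited table (55765 gene symbols, 18 samples) was used. Its values are a signal that the authors made by dividing gene counts by size factors, which ran from 0.812 to 1.145. Per the submitters' processing notes, Trim Galore 0.4.4, STAR 2.6.0a, HTSeq, DESeq2 and genome build hg19 were used; the annotation and strand setting are not given in the sources used here. Values times the size factor were whole reads for 100.0% of values (tolerance 1e-06). MDFIC, PTGFRN and the partner lists were chosen with earlier results of these data known.

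Groups came from the sample titles. limma 3.58.1 in R 4.3.3 (lmFit, eBayes with trend) was fitted to log2(value + 1) of 16154 genes with a mean of at least 10, over all 6 groups without a replicate block. A call needed a size of at least 1 on the log2 scale with a Benjamini-Hochberg adjusted p under 0.05. Folds on this scale understate the change of low genes. Alternatives were other pseudocounts, filters, scalings and samples in the fit, a replicate block, leaving out each replicate, and edgeR 4.0.16 and DESeq2 1.42.0 on recovered reads. P-values measure the spread between the biological triplicates as the labels name them, and independence of the cultures is not stated further. Named genes were the members, the 5 genes with the highest Pearson r to each, chosen partners, partners past the threshold in both response differences, and the nearest 3 tested genes on each side. Promoter sequences and gene order came from RefSeq (GRCh38.p14), and no coordinates were carried between builds. Figures used matplotlib 3.10.9.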

Additional observations from a re-analysis of the deposited data

Results flagged for a closer look

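The response to tazemetostat differed between a clone and WT in these tests by limma (Benjamini-Hochberg adjusted p over 16154 genes, n = 3 per group). FOXP2, beside MDFIC, had a response difference of 3.02 in E1 and 4.86 in F2, with 7 to 18 reads per WT DMSO library, and with a pseudocount of 5 these FOXP2 values were 1.24 and 3.09. FOXP2 passed the filter only through the treated F2 libraries, so nothing is read from its calls. TES, on the other side of MDFIC, had -2.97 in E1 and -1.29 in F2. It too passed the filter only through its treated libraries, so nothing is read from its calls. IGSF3, beside PTGFRN, had 1.99 in F2, resting on 2 to 6 reads per library in WT with DMSO and 0 to 2 in F2. Nothing is read from that call either, since IGSF3 passed the filter only through its treated libraries. TSPAN10 had -1.03 in E1 and -1.34 in F2, and CD9 had -1.002 in F2.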

How the results depend on the processing

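The E1 minus F2 differences of the members are descriptions, and their sizes moved most in DMSO, where both clones are at the floor. There the log2 difference of PTGFRN was 1.25 with a pseudocount of 0.5, and 0.82 with no fold limit as with one. The PTGFRN difference with tazemetostat was -0.064 when all libraries were given the same total. The MDFIC response difference between the clones was -0.21 with a pseudocount of 5 and -0.021 at the same total. Leaving out each replicate number gave -1.02 to -0.018 (MDFIC, DMSO), 0.49 to 1.23 (PTGFRN, DMSO), -0.031 to 0.055 (PTGFRN, tazemetostat) and -0.31 to 0.63 (MDFIC, response). The DMSO values of -1.02 (without replicate 3) and 1.23 (without replicate 2) rest on at most 3 reads. Under a replicate block, the E1 minus F2 difference of PTGFRN in DMSO stayed 0.82, and no partner count changed. The same-numbered samples' deviations correlated by -0.0915 to 0.154 on average, so the number was not taken to pair them.

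With no filter on low values the partner genes called with tazemetostat numbered 17, 16 and 15 (WT, E1, F2), since more genes were tested. With no fold limit they numbered 35, 19 and 26, and 20 and 16 in the response differences of E1 and F2, of 41 tested. Of all tested genes 64.2%, 46.8% and 52.2%, and 35.4% and 26.9%, were then called. Leaving out each replicate gave 1 to 4 in that of E1. At the same total the mean of MDFIC was 222.5 in treated WT and 505.4 in treated F2, and that of PTGFRN in treated F2 2213. That scaling moved the median of all genes by -0.151 (tazemetostat in WT) and 0.123 (response of F2 minus WT).

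Some changes turned direction, and the cause was not tested. They were near 0 in the main fit, except the response differences of TSPAN5 in E1 (1.19) and of TFEC (-0.43) and CD58 (0.67) in F2. At the same total the turned changes were PIEZO1 (0.073) and CCNT1 (0.10) in the response of F2, CCNT1 in WT (-0.095), HEXIM1 (-0.031) and CD81 (-0.0082) in E1, and MAN1A2 in WT (-0.024) and in the response of F2 (0.030). The response of E1 was -0.30 for TSPAN5 by edgeR. The response of F2 was 1.045 for TFEC by edgeR and -0.11 for CAV1 by DESeq2. Over left-out replicates the change with tazemetostat in E1 ran from -0.051 to 0.14 (CCNT1), -0.011 to 0.082 (HEXIM1), -0.16 to 0.21 (CD81), -0.084 to 0.44 (CD151) and -0.026 to 0.18 (TTF2), and in F2 from -0.015 to 0.13 (CCNT1) and -0.065 to 0.049 (TTF2). The response of E1 minus WT ran from -0.12 to 0.080 (CCNT1), -0.53 to 0.59 (CD58), -0.10 to 0.20 (ATP1A1OS) and -0.11 to 0.12 (MAN1A2). That of F2 ran from -0.23 to 0.065 (PIEZO1), -0.081 to 0.071 (CCNT1), -0.11 to 1.39 (CD58) and -0.27 to 0.32 (ATP1A1OS).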
